A study of Drosophila melanogaster with 24 samples.

Results

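Thick filament and titin-like genes of Drosophila melanogaster muscle were described in indirect flight muscle (IFM) and in the ventral nerve cord (VNC) after larval exposure to methylmercury (MeHg). The 10 genes were chosen by symbol and by no cut on measured values, out of 17545 genes in the files. Earlier results of these data were known when they were chosen. Of these, 6 encode myosin chains or other thick filament proteins (Mhc, Mlc1, Mlc2, Prm, fln and Mf) and 4 encode giant titin-like proteins (sls, bt, Strn-Mlck and Unc-89). All 10 were found in the files and all passed the low-count filter in every comparison.

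The series holds 24 libraries in 8 groups of 3, which cross tissue (IFM or VNC), stage (pupae 30 h after puparium formation or adults of 15 days) and larval food. Treated animals ate food with 5 µM methylmercury chloride from the first larval instar, control animals ate the same food with 0.01% DMSO as solvent, and all adults lived on food without MeHg after eclosion. Both sexes were mixed, tissue was fixed in Methacarn before dissection, and each library pooled the tissue of 50 animals. The IFM samples hold both the dorsal longitudinal and the dorsoventral muscles. The labels give neither strain nor genotype, and adult MeHg replicates are numbered 1, 3 and 4.

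The sarcomere of insect flight muscle slides myosin thick filaments past actin thin filaments. The single muscle myosin heavy chain gene gives rise to many isoforms by alternative splicing, each heavy chain carries an essential and a regulatory light chain, and the core and surface of the filament are lined by further proteins such as paramyosin, myofilin and flightin. Giant titin-like proteins anchor the filament ends elastically to the Z-disc, run along the A-band or sit at the M-line. At 30 h after puparium formation the flight muscle fibres are young and myofibrils are only starting to assemble, whereas in adults they are complete.

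The genes differ widely in length, which matters for any comparison of their levels. On the Release 6 assembly (dm6), Mhc lies at chr2L:16766566-16788766, with 21 annotated transcripts and 9058 exonic bases. Of the light chain genes, Mlc1 lies at chr3R:27657078-27660177 with 1414 exonic bases and Mlc2 at chr3R:30171438-30174551 with 2286. Prm, the paramyosin gene, lies at chr3L:8732858-8745310 with 5356 exonic bases, fln, the flightin gene, at chr3L:19989551-19991220 with 1300, and Mf, the myofilin gene, at chr3R:15170625-15181510 with 5296. The titin-like genes are the longest of the 10. The exons of sls span 58996 bases at chr3L:2039681-2115611, with a longest coding sequence of 18468 codons. Those of bt span 28019 bases at chr4:724400-776474, with 8933 codons, and those of Strn-Mlck 32768 bases at chr2R:15946933-15989498, with 8255 codons. Unc-89, which the annotation lists under the name Obsc, lies at chr2R:23995543-24014254 with 13261 exonic bases and 4218 codons. By way of comparison, the median exonic length of all genes was 1429 bases.

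Some of these genes overlap others on the opposite strand, and the sources used here do not say whether counting used the strand. The exons of fln share 801 bases with asRNA:CR45161, those of sls share 1089 bases with asRNA:CR42860, and those of Strn-Mlck share 334 bases with Cyp4aa1 and 163 with lncRNA:CR45021. Reads from such stretches may have been split or lost.

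Library totals, in units of 1000000 counts, ran from 12.4 to 39.3. The 10 genes together took 5.29% to 8.13% of all counts in IFM libraries and 0.0414% to 0.142% in VNC libraries. Levels below are counts per 1000000 counts of the library (CPM) with TMM scaling over all 24 libraries, and "per kb" means divided by exonic length. Log2 fold changes (± standard error) and adjusted p-values come from edgeR's quasi-likelihood test, adjusted by the Benjamini-Hochberg method across every gene tested, and "called" means an adjusted p under 0.05. Nothing in the labels says that the 3 replicates came from separate cultures, so p-values measure the spread between these pools of animals. In bulk tissue, fewer cells of a type and less RNA per cell cannot be told apart. Nor can RNA of the nerve cord and RNA of muscle carried over in dissection be told apart in VNC libraries.

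All 10 genes marked the dissected muscle. In control pupae all 10 were called higher in IFM than in VNC, where 25.9% of all 12631 genes were, and in control adults all 10 were called higher, against 35% of all genes. The IFM libraries lay wholly above the VNC libraries for all 10 at both stages, as they did for 26.8% of all genes in pupae and 35.5% in adults. In control pupae, fln had 107, 103 and 132 CPM in IFM and 0.217, 0.221 and 0 CPM in VNC, which rest on 8, 8 and 0 counts. Flightin mRNA thus sat at the edge of detection in the nerve cord, and its fitted difference was 9.49 ± 0.72 (log2, edgeR adjusted p 5.4e-10). For Mhc the pupal difference was 9.18 ± 0.77, and the smallest was that of Strn-Mlck, at 4.26 ± 0.25 (adjusted p 6.66e-12). In adults the differences ran from 5.97 ± 0.33 for Mf to 10.02 ± 0.66 for fln. The median of all genes in these tissue comparisons lay at -0.11 in pupae and -0.13 in adults.

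Expressed as a percentage of the IFM mean, the VNC mean of control pupae was 0.177% for Mhc, 0.202% for Mlc1, 0.290% for Mlc2, 0.128% for fln, 0.341% for Unc-89, 0.587% for Prm and 0.923% for bt. It was higher for the remaining 3 genes, at 2.54% for Mf, 2.77% for sls and 5.36% for Strn-Mlck. The percentages of the 10 genes thus spanned 0.128% to 5.36% in the same libraries. In control adults the percentages lay closer together for most genes, with 1.19% for Mhc, 1.52% for sls, 1.61% for Mf and 0.752% for Strn-Mlck, and with fln again lowest at 0.0959%. Strn-Mlck had 167, 173 and 199 CPM in VNC of control pupae and 50.1, 54.2 and 73.8 CPM in VNC of control adults, so the adult libraries all lay below the pupal ones.

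**Figure D1:**
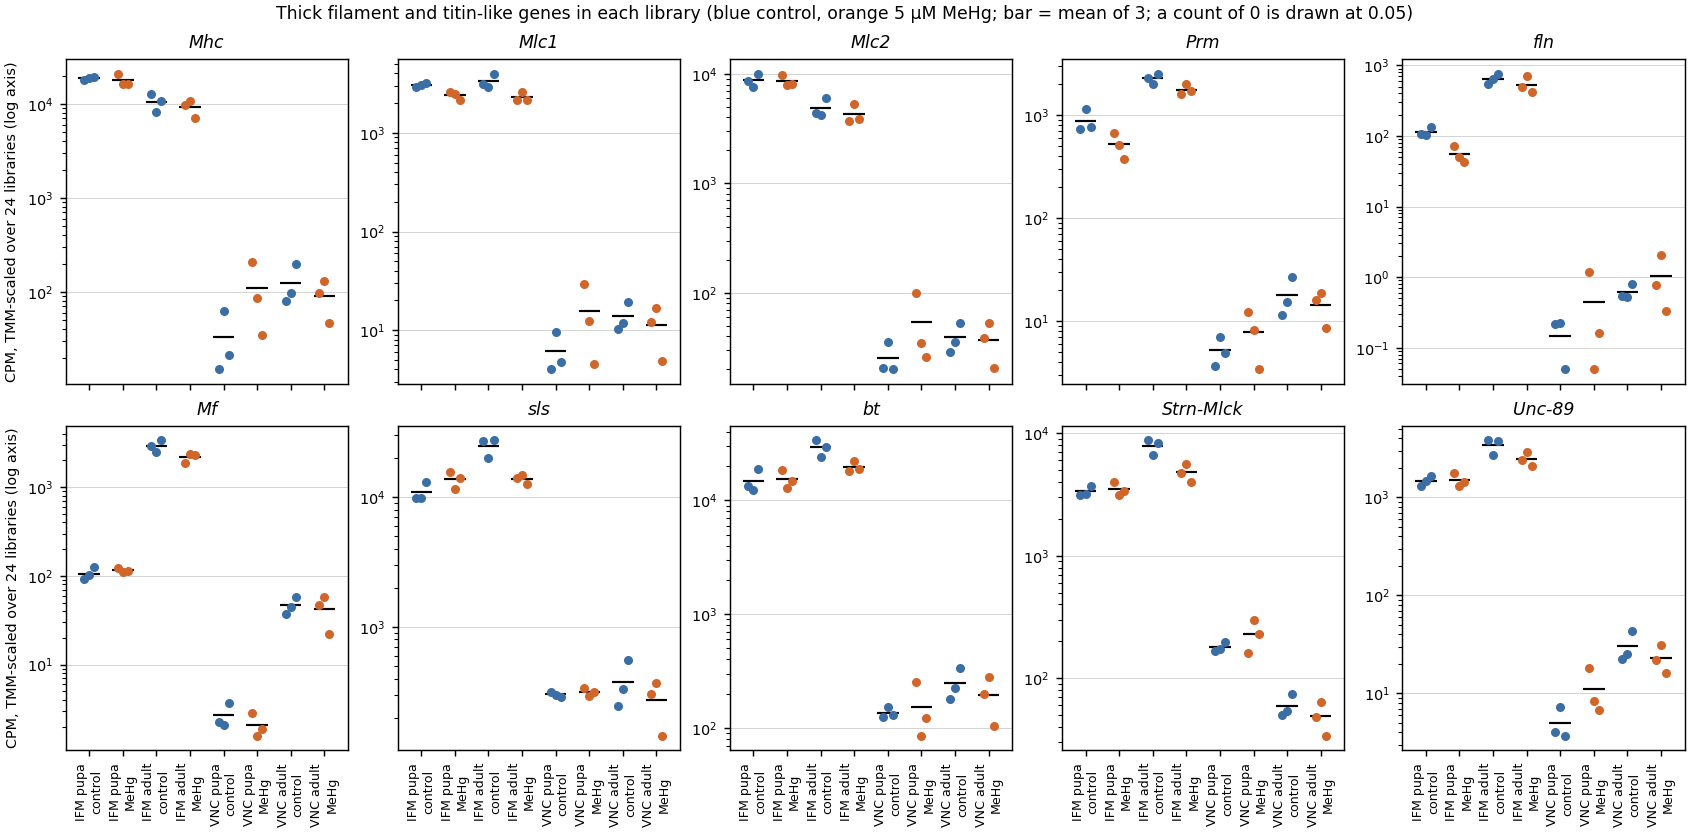
Level of each of the 10 genes in each library, in CPM on a log axis, by tissue, stage and treatment (blue control, orange 5 µM MeHg, bar the mean of 3 libraries, and a count of 0 drawn at 0.05). All IFM libraries lie above all VNC libraries for every gene, the Mf panel shows the widest step from pupal to adult IFM, and adult sls and Strn-Mlck show MeHg libraries below the controls.

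Per exonic kilobase, the myosin chains led in muscle at both stages. This length merges all annotated exons of a gene, and single transcripts can be much shorter. Annotated transcripts run from 15263 to 56489 bases for sls, 813 to 2827 for Mf and 1695 to 3661 for Prm. The order by length of the transcripts present was not tested. In control pupal IFM the order began with Mlc2 (3829 CPM per kb, mean of n = 3), followed by Mlc1 (2157) and Mhc (2062), whose ranges over libraries overlapped, and then bt (529). The next pairs or triplets did not separate beyond their ranges: sls (185) and Prm (165), then Unc-89 (112), Strn-Mlck (102) and fln (87.8). Mf, the myofilin gene, was lowest at 20.1 CPM per kb and below the range of fln.

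By adult day 15 the order in control IFM had changed, and the light chains no longer separated from each other. Mlc1 (2348 CPM per kb) and Mlc2 (2124) overlapped at the top, followed by Mhc (1162) and bt (1042), which overlapped as well. Mf (547), fln (499), Prm (425) and sls (418) formed a run in which each neighbour overlapped the next, and Unc-89 (258) and Strn-Mlck (241) came last. In VNC the ranges overlapped for 6 of 9 neighbouring pairs in control pupae and 8 of 9 in control adults, so the order there was mostly not resolved.

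**Figure D2:**
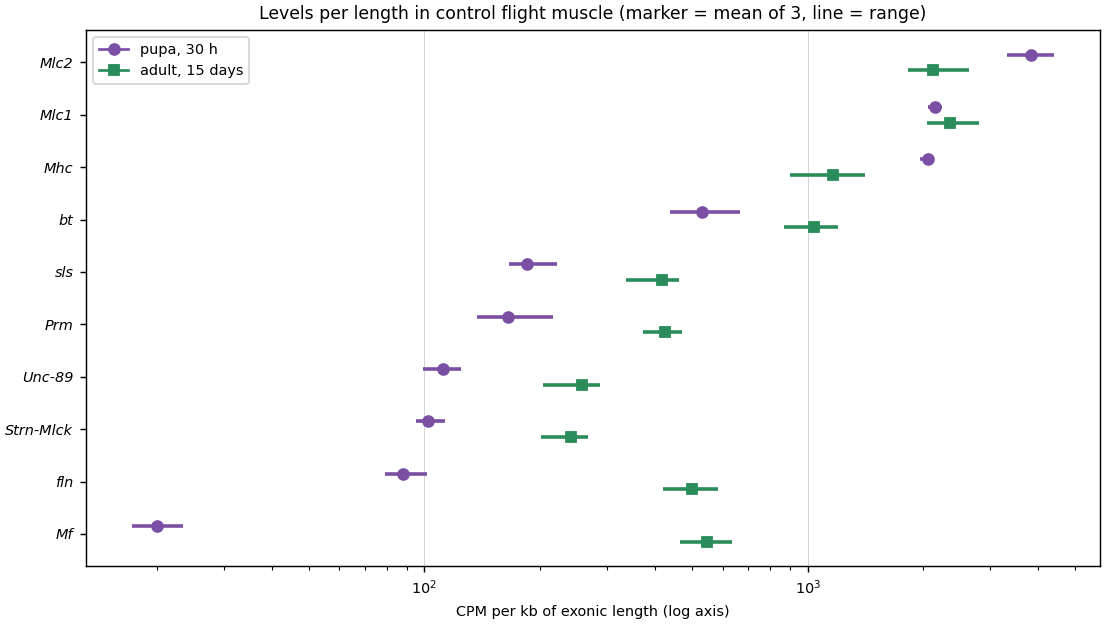
Level per exonic kilobase of the 10 genes in control IFM, in CPM per kb on a log axis (marker the mean of 3 libraries, line their range, purple circles pupae, green squares adults). Mhc and Mlc2 lie further left in adults, and Mf moves from last place, at 20.1 CPM per kb, to 547 CPM per kb.

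From pupa to adult, the filament accessory and titin-like genes rose in control muscle while the heavy chain and the regulatory light chain fell. Of the 10 genes, 7 were called higher in adult IFM (37.7% of all 11347 genes were) and 2 were called lower (36.7% were). Mf, which encodes the thick filament core protein myofilin, had 91.4, 103 and 124 CPM in pupae and 2880, 2462 and 3353 CPM in adults, a rise of 4.77 ± 0.17 on the log2 scale (edgeR adjusted p 8.6e-10). The flightin gene fln had 107, 103 and 132 CPM in pupae and 545, 643 and 758 CPM in adults, a rise of 2.51 ± 0.23 (adjusted p 1.76e-06). These were the widest steps of the 10, and for both genes the lowest adult library lay far above the highest pupal one. Prm rose from 734, 1160 and 762 CPM to 2321, 1987 and 2520 CPM (log2 1.34 ± 0.26, adjusted p 0.00071).

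The titin-like genes moved by similar amounts. The log2 rise was 1.24 ± 0.15 for Strn-Mlck, 1.21 ± 0.17 for Unc-89 (obscurin, a protein of the M-line), 1.18 ± 0.15 for sls and 0.99 ± 0.18 for bt, with edgeR adjusted p from 1.53e-05 to 0.00031. Adult libraries exceeded all pupal libraries for each of the 4. For bt, which encodes projectin, control pupae had 13465, 12280 and 18717 CPM and control adults 33646, 24265 and 29680 CPM.

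The myosin chains went the other way or did not pass. Mhc had 17825, 18831 and 19379 CPM in control pupae and 12775, 8137 and 10673 CPM in control adults, a fall of 0.83 ± 0.19 on the log2 scale (log2 -0.83, edgeR adjusted p 0.0019). Mlc2, the regulatory light chain, had 8666, 7573 and 10021 CPM in pupae and 4356, 4179 and 6029 CPM in adults (log2 -0.85 ± 0.17, adjusted p 0.00082). Pupal and adult libraries did not overlap for either gene, so that the ranges were separate for 9 of the 10 genes, against 73.9% of all genes. Mlc1, the essential light chain, differed by 0.12 ± 0.14 and did not pass (adjusted p 0.47, 95% interval -0.21 to 0.44). When all 24 libraries shared 1 fit, Mhc (-0.85, adjusted p 0.172) and Mlc2 (-0.88, adjusted p 0.0589) lost their calls. The library titles carry a date-like tag whose meaning the labels do not give, and it differs between stages, so tag and stage cannot be told apart. Markers of other cells changed between the same libraries. The summed level of 8 fat body markers was 5219 to 10216 CPM in control pupal IFM and 40057 to 49737 CPM in control adult IFM, with 5 called higher and 3 lower. The sum of 7 haemocyte markers was 262 to 363 and 2479 to 3969 CPM, with 7 called higher, and that of 7 glia markers 210 to 269 and 1886 to 2051 CPM, with 4 higher and 1 lower. The sum of 10 neuron markers was 396 to 541 and 646 to 860 CPM, with 6 called higher and 1 lower. The sum of 6 myoblast markers was 562 to 812 and 122 to 136 CPM, with 6 called lower, and that of 4 tendon markers 274 to 438 and 133 to 148 CPM, with 3 called lower. Of 4 trachea markers tested, 2 were called higher and 2 lower. Their part in the stage differences was not tested.

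Other sarcomere lists changed over the same interval in both directions. Of 15 thin filament genes, 7 rose and 8 fell in control IFM, among them the troponin C isoform genes TpnC4 (log2 8.98 ± 0.40) and TpnC73F (log2 -7.98 ± 0.43). Of 9 Z-disc genes tested, 5 rose and 2 fell, with Zasp66 at 9.21 ± 0.23 and Zasp52 at 3.53 ± 0.15 (edgeR adjusted p 1.69e-10 and 3.36e-09). Lasp, also on the Z-disc list, had 0 counts in every group of both tissues and was not tested, for a reason that was not examined. The median log2 change was 1.19 for the 10 thick filament and titin-like genes, -0.44 for thin filament genes and 1.72 for Z-disc genes, against -0.04 for all genes.

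In the control nerve cord, 3 of the 10 genes were called higher in adults (31.7% of all 11870 genes were) and 1 lower (32.6% were). Mf rose from 2.28, 2.10 and 3.71 CPM to 37.2, 44.4 and 58.1 CPM (log2 4.09 ± 0.40, edgeR adjusted p 4.25e-06), Unc-89 by 2.54 ± 0.47 (adjusted p 0.00071) and Prm by 1.75 ± 0.52 (adjusted p 0.012). Mf thus rose in the libraries of both tissues, at much lower levels in VNC. Its VNC mean was 2.54% of the IFM mean in control pupae and 1.61% in control adults. Strn-Mlck fell by 1.63 ± 0.28 in VNC (log2 -1.63, adjusted p 0.00036) while it rose in IFM. The call of Prm was lost without VNC adult control replicate 3 (1.28, adjusted p 0.0501) or pupal control replicate 1 (1.52, adjusted p 0.0525). Other genes gained a call: Mhc in 5 of 14 alternative fits (log2 1.32 to 2.77 over the 14), bt in 2 and fln in 1. DESeq2 and limma voom each called 5 of the 10 genes. The mean of Mhc was 33.0 CPM in control pupal VNC and 125 CPM in control adult VNC, whereas Mhc was called lower in adult IFM.

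In pupal muscle exposed to MeHg, the flightin gene was the only one of the 10 called. It was called lower, beside 2.09% of all 11347 genes called lower and 3.01% called in either direction. Control libraries had 107, 103 and 132 CPM of fln and MeHg libraries 72.6, 49.6 and 42.8 CPM, so that all 3 MeHg libraries lay below the controls (log2 -1.09 ± 0.23, edgeR adjusted p 0.0289). The paramyosin gene Prm had 734, 1160 and 762 CPM in controls and 671, 518 and 372 CPM with MeHg. Its ranges did not overlap either, but the difference did not pass (log2 -0.83 ± 0.26, adjusted p 0.114). With DESeq2 Prm did pass (log2 -0.82, DESeq2 adjusted p 0.0217). Mlc1 had 2915, 3068 and 3165 CPM in controls and 2608, 2465 and 2162 CPM with MeHg, again without overlap and without a call (log2 -0.38 ± 0.14, adjusted p 0.17). With that, 3 of the 10 genes had MeHg libraries wholly below the controls, and 11.9% of all genes did.

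The other 7 genes showed no difference that passed in pupal IFM. Mhc differed by -0.12 ± 0.19 (edgeR adjusted p 0.79, 95% interval -0.55 to 0.31) and Mlc2 by -0.06 ± 0.17. Mf differed by 0.08 ± 0.15, bt by 0.02 ± 0.17, Strn-Mlck by 0.02 ± 0.15 and Unc-89 by -0.01 ± 0.17. For sls, which encodes Sallimus, control libraries had 9814, 9808 and 13066 CPM and MeHg libraries 15609, 11501 and 13945 CPM, with overlap and without a call (log2 0.29 ± 0.15, adjusted p 0.32). The median over the 10 genes was -0.04, beside 0.00 over all genes, with 6 of 10 below 0. Without 1 library the median ran from -0.16 to 0.03 and the number below 0 from 4 to 9.

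The call of fln did not hold in every fit. It was lost when control replicate 1, 2 or 3 or MeHg replicate 2 or 3 was left out (adjusted p up to 0.121) and when all 24 libraries shared 1 fit (log2 -1.06, adjusted p 0.18), while the log2 change stayed between -1.34 and -0.92 in the fits that left out a library. Pupal IFM libraries also differed in how their counts leaned with gene length. Across 7092 genes, the Spearman correlation of exonic length with the deviation from the group mean was -0.42, -0.34 and -0.19 in control libraries and 0.41, 0.27 and 0.35 in MeHg libraries. With each library's trend with length removed, the median over the 10 genes was -0.25 with 9 of 10 below 0, and fln stayed called (log2 -0.98, adjusted p 0.0367), while Mf (-0.11), bt (-0.22) and Strn-Mlck (-0.23) changed sign without a call. The lowest estimate of the 10 in that fit was that of Prm (log2 -1.06), without a call.

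Scaled to the heavy chain of the same library, a ratio that needs no scaling factor, flightin counts were lower too. Control pupal IFM held 0.602, 0.546 and 0.682 fln counts per 100 Mhc counts, and MeHg pupal IFM 0.348, 0.304 and 0.265. The geometric means were 0.607 and 0.304, a log2 difference of -0.999, and the groups did not overlap. This was not particular to fln. The MeHg ratios also lay wholly below the controls for Prm (2.31 to 3.22 against 3.93 to 6.16) and Mlc1 (12.5 to 15.1 against 16.29 to 16.35). For sls they lay wholly above (70.6 to 86.5 against 52.1 to 67.4), and for the remaining genes the groups overlapped. The share of all genes with separate pupal ratios was not computed. For fln, an exact 2-sided permutation test over the 6 libraries gave p = 0.1, which is the smallest p that 3 against 3 libraries allow. Any full separation of the groups gives this p. The ratio uses the same fln counts as the fit above, so it is no separate check of that call. The exons of fln are much shorter than those of Mhc, and with each library's trend with length removed the log2 difference was -0.66 (exact permutation p = 0.1). In adults the ratio was higher, at 4.27, 7.90 and 7.11 in controls and 5.00, 6.60 and 5.81 with MeHg. The adult groups overlapped (geometric means 6.21 and 5.76, exact permutation p = 0.7).

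**Figure D3:**
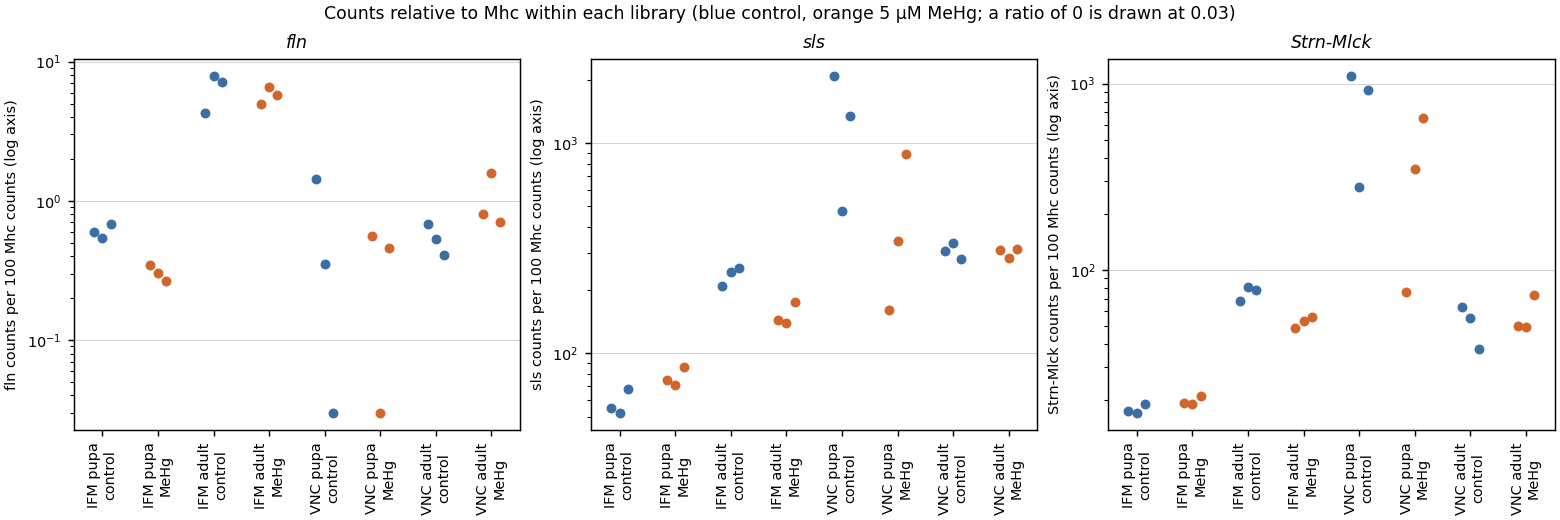
Counts of fln, sls and Strn-Mlck per 100 Mhc counts of the same library, on log axes, by tissue, stage and treatment (blue control, orange 5 µM MeHg, and a ratio of 0 drawn at 0.03). In pupal IFM the fln ratio is 0.546 to 0.682 in controls and 0.265 to 0.348 with MeHg, and in adult IFM the sls and Strn-Mlck ratios with MeHg lie below all controls.

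In adult muscle, from flies kept on food without MeHg since eclosion, the titin-like genes sls and Strn-Mlck were called lower. These were 2 of the 10, beside 3.93% of all 11347 genes called lower and 7.6% called in either direction. For sls, the elastic link between Z-disc and thick filament, control adults had 26830, 19821 and 27286 CPM and MeHg adults 13968, 14911 and 12550 CPM. The lowest control library exceeded the highest MeHg library, and the log2 difference was -0.77 ± 0.15 (edgeR adjusted p 0.0154, 95% interval -1.13 to -0.42). For Strn-Mlck, a giant protein of the A-band, control adults had 8739, 6616 and 8345 CPM and MeHg adults 4749, 5637 and 3977 CPM, again without overlap (log2 -0.66 ± 0.15, adjusted p 0.0252).

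The 8 other genes also had estimates below 0 but did not pass. The projectin gene bt had 33646, 24265 and 29680 CPM in controls and 18140, 22369 and 18725 CPM with MeHg (log2 -0.50 ± 0.17, edgeR adjusted p 0.103). Mlc1 had 3101, 2897 and 3963 CPM in controls and 2157, 2608 and 2159 CPM with MeHg (log2 -0.46 ± 0.14, adjusted p 0.074). Neither pair of groups overlapped. Unc-89 differed by -0.42 ± 0.17 (adjusted p 0.158) and Mf by -0.34 ± 0.14 (adjusted p 0.176). Prm (-0.31), fln (-0.22), Mhc (-0.14) and Mlc2 (-0.12) lay closer to 0, and the interval of Mhc ran from -0.57 to 0.30. MeHg libraries lay wholly below the controls for 6 of the 10 genes, namely Mlc1, Prm, Mf, sls, bt and Strn-Mlck, as they did for 17.2% of all genes. For Prm the margin was small, with 1987 CPM in both the highest MeHg and the lowest control library. These separations depend on TMM scaling for most of the genes. As shares of all counts, without TMM scaling, the groups overlapped for Mlc1, Prm, Mf and bt. For sls they stayed apart, and for Strn-Mlck the closest libraries held 0.514% in controls and 0.510% with MeHg. The median over the 10 genes was -0.38, beside -0.01 over all genes.

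Ratios to Mhc of the same library were compared as well, without a test. Per 100 Mhc counts, adult controls held 210, 244 and 256 sls counts and MeHg adults 144, 140 and 176. Strn-Mlck stood at 68.4, 81.3 and 78.2 in controls and 48.9, 52.9 and 55.6 with MeHg, and Unc-89 at 29.9 to 35.1 in controls and 24.6 to 29.0 with MeHg. The ratio of bt was 263, 298 and 278 in controls and 187, 210 and 262 with MeHg, where the closest libraries lay almost level. The MeHg libraries lay wholly below the controls for these 4 of the 9 ratios, against 2.51% of all genes, and overlapped them for Mlc1, Mlc2, Prm, fln and Mf. Of the 4 genes, sls and Strn-Mlck were called in the fit of levels, and bt and Unc-89 were not. As a share of all counts, without TMM scaling, the 10 genes summed took 8.13%, 5.73% and 7.49% in adult controls and 5.29%, 6.28% and 5.41% in MeHg adults, which overlapped.

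The adult calls rested on part of the libraries. Without control replicate 3 (adjusted p 0.0633) or MeHg replicate 4 (adjusted p 0.0705) sls was no longer called, with log2 changes of -0.73 in both fits, and Strn-Mlck was no longer called without control replicate 1 or 3 or MeHg replicate 1 or 4 (adjusted p 0.0653 to 0.0998). MeHg replicate 4 is the only adult IFM library with another title tag than the rest, and with the tag as a term neither gene passed (sls log2 -0.72, edgeR adjusted p 0.117, and Strn-Mlck log2 -0.56, adjusted p 0.156). Among adults that term covers only this library, so the fit is close to leaving it out and is no separate check. Leaving out control replicate 2 gave 3 called genes.

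Other lists of adult muscle stood beside these values. Of 9 Z-disc genes tested, 2 were called lower, Mlp60A (log2 -1.37 ± 0.21, edgeR adjusted p 0.00599) and Fhos (log2 -0.92 ± 0.16, adjusted p 0.0108), a muscle LIM protein and a formin. Of 15 thin filament genes 1 was called, the flight muscle actin gene Act88F (log2 -1.28 ± 0.20, adjusted p 0.00776), and the median of that list was 0.12. Of 4 myosin assembly genes 1 was called, unc-45, which encodes a myosin chaperone, with 552 to 735 CPM in controls and 346 to 436 CPM with MeHg (log2 -0.64 ± 0.11, adjusted p 0.0104). Of 6 non-muscle myosin genes 1 was called higher, the light chain gene Mlc-c (log2 0.68 ± 0.16, adjusted p 0.0287). The antisense gene asRNA:CR42860, which overlaps sls, was called lower too, with 1592, 2385 and 2394 counts in controls and 916, 697 and 525 counts with MeHg (log2 -1.42 ± 0.38, adjusted p 0.0483).

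Markers of other cells moved in the same adult IFM libraries. The summed level of 8 fat body markers was 40057 to 49737 CPM in controls and 14786 to 30230 CPM with MeHg, and 1 of the 8, Lsd-1, was called lower. The sum of 7 haemocyte markers was 2479 to 3969 CPM in controls and 2120 to 2375 CPM with MeHg, with Pxn and Ppn called lower. The sum of 7 glia markers was 1886 to 2051 and 1496 to 1737 CPM and that of 4 tendon markers 133 to 148 and 116 to 122 CPM, both without overlap and with 0 markers called. The sums of 10 neuron markers (646 to 860 and 634 to 729 CPM), 5 trachea markers (40.8 to 50.5 and 50.2 to 62.4 CPM) and 6 myoblast markers (122 to 136 and 120 to 134 CPM) overlapped. In pupal IFM, the sum of 6 myoblast markers was 562 to 812 CPM in controls and 1035 to 1442 CPM with MeHg, with sns called higher. The sum of 7 haemocyte markers there was 262 to 363 and 368 to 482 CPM, with Hml called higher, and that of 5 trachea markers 36.3 to 42.0 and 44.6 to 51.5 CPM, with 0 called. The fat body, glia, neuron and tendon sums overlapped there. Every marker of these lists had counts in every IFM group except tal-1A of the trachea list, which had 0 in all 24 libraries. Their part in the results was not tested.

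**Figure D4:**
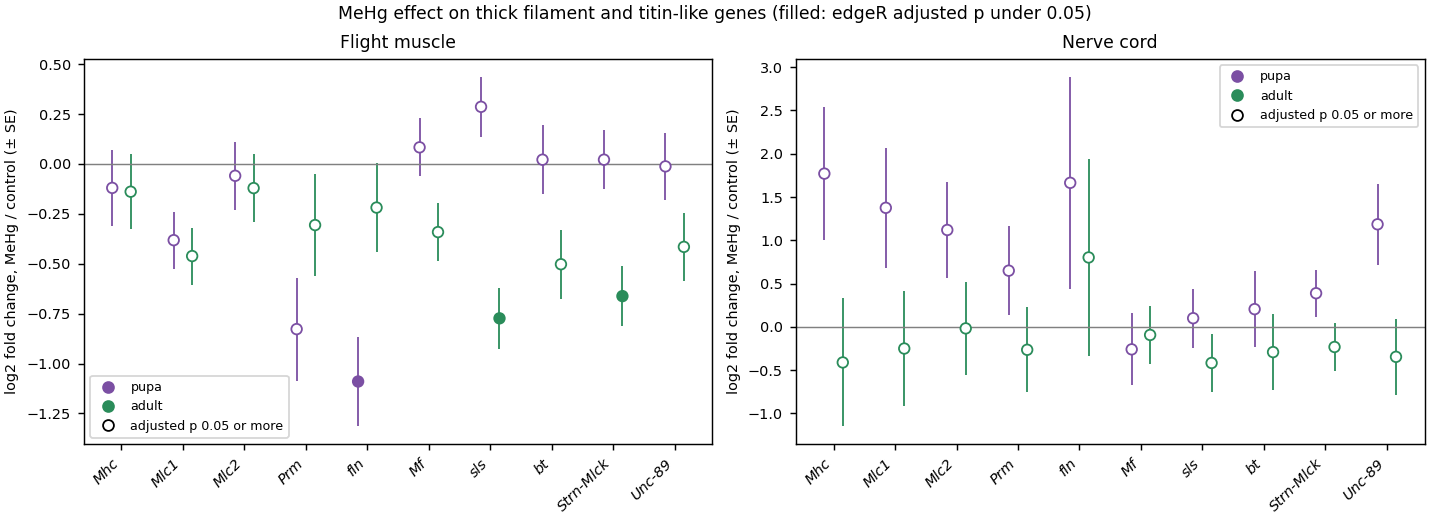
Log2 fold change of MeHg against control (± standard error, 3 libraries a group) for the 10 genes in flight muscle (left) and nerve cord (right), purple for pupae and green for adults, filled where the edgeR adjusted p is under 0.05. The axes of the panels differ. In flight muscle fln is filled in pupae (-1.09) and sls (-0.77) and Strn-Mlck (-0.66) in adults, and no point is filled in nerve cord.

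Whether the MeHg difference itself changed between stages was tested as an interaction in IFM. Of the 10 genes, sls was called (log2 -1.06 ± 0.21, edgeR adjusted p 0.0308), where 2.69% of all 11347 genes were, since it stood at 0.29 in pupae and -0.77 in adults. Strn-Mlck (-0.68 ± 0.21, adjusted p 0.11) and fln (0.87 ± 0.31, adjusted p 0.16) did not pass. The response of fln is therefore not shown to differ between stages. The call of sls was lost with each library's length trend removed (-0.68, adjusted p 0.078), with the title tag as a term, with all 24 libraries in 1 fit (-1.14, adjusted p 0.0856) and without any 1 of 10 of the 12 libraries. It was kept without adult control replicate 2 or pupal control replicate 3.

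In the nerve cord no gene of the 10 was called in response to MeHg at either stage, where 0.531% of all 11870 genes were called in pupae and 0.0674% in adults. In pupal VNC edgeR called 0 of the 10, with 2 at an unadjusted p under 0.05, and DESeq2 and limma voom called 0. Mhc had 15.2, 62.4 and 21.6 CPM in control and 210, 86.1 and 35.0 CPM in MeHg pupae, which overlap (log2 1.77 ± 0.77, adjusted p 0.548). MeHg replicate 1 was the highest of the 6 libraries for 8 of the 10 genes, among them Mlc1 (29.4 CPM), Mlc2 (99.5 CPM), bt (253 CPM), Unc-89 (18.2 CPM), Prm (12.1 CPM) and fln (1.18 CPM), but not for Mf or Strn-Mlck. The estimate lay above 0 for 9 of the 10 genes, with a median of 0.88 beside 0.00 over all genes. Without MeHg replicate 1 the median was 0.20 with 3 of 10 below 0, and the estimate of Mhc was 0.87, whereas without control replicate 2 Mhc stood at 2.68. The median was 0.36 with limma voom. The ranges were separate for 0 of the 10, against 12.5% of all genes. Over the 15 thin filament genes the summed level was 1138 to 1247 CPM in control and 1160 to 1399 CPM in MeHg pupae. For the 2 members with the highest pupal VNC levels, the values were closer: sls had 317, 297 and 290 CPM in control and 339, 296 and 313 CPM with MeHg (log2 0.10 ± 0.34), and Strn-Mlck 167, 173 and 199 against 160, 299 and 228 CPM (log2 0.39 ± 0.27).

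In adult VNC edgeR called 0 of the 10, with 0 at an unadjusted p under 0.05, and DESeq2 and limma voom called 0. Estimates ran from -0.42 for sls to 0.80 for fln, and those of 9 genes lay below 0, with a median of -0.26 beside 0.05 over all genes. That direction rested on single libraries: without control replicate 3 the estimates of 0 genes lay below 0 (median 0.14), and without MeHg replicate 4 those of 4 did (median 0.0168). With the title tag as a term, which among adults covers only MeHg replicate 4, it was 4 genes (median 0.00909). With limma voom it was 6 (median -0.02). The ranges were separate for 0 of the 10, against 26.1% of all genes. Mhc had 79.3, 98.2 and 197 CPM in control adults and 97.6, 130 and 46.5 CPM in MeHg adults, with an interval of the log2 difference from -2.12 to 1.30, which holds the changes seen in muscle. The interactions of MeHg with tissue gave 0 called members in pupae, with 5 at an unadjusted p under 0.05, and 0 in adults, with 0, and MeHg by stage in VNC gave 0, with 1. The share of all genes called was 0.245%, 3.38% and 0.00842% in these 3 comparisons. DESeq2 and limma voom called 0 members in each of them. The adult fall of sls in muscle is therefore not shown to be particular to muscle (interaction -0.35 ± 0.38, edgeR adjusted p 0.638).

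The 10 genes did not vary as 1 block. Over the 12 IFM libraries, with each stage's mean removed, the Pearson correlation of log2 CPM was 0.95 between Strn-Mlck and Unc-89 and 0.93 between sls and Strn-Mlck. Between fln and Prm it was 0.81, and between fln and sls 0.02. These libraries share depth, scaling and the length trend, and the values are given as a description. Only the stage means were removed, so differences between control and MeHg libraries remain in these correlations. By the same measure, the genes most like Mhc were Ehbp1 (0.88), SmydA-3 (0.87), kz (0.86), ppan (0.86) and Doa (0.85). Those most like fln were Mal-B2 (0.95), Sdhaf3 (0.95), Smyd4-1 (0.94), mRpL14 (0.93) and mRRF1 (0.93).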

How the data were processed

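Total RNA was sequenced from stranded total RNA libraries. Per the submitters' processing notes, bcl2fastq 2.19.0, STAR 2.7.6a, Subread 2.0.1 and featureCounts were used with the dm6 build, and the use of strand in counting is not given in the sources used here. The deposited values are counts per gene (whole numbers, 17545 genes) and a normalised signal, in which the authors divided each count by 1 factor per library (0.554 to 1.49). All tests used the counts.

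Genes were named through RefSeq locus tags (Release 6 plus ISO1 MT), and the exonic length of a gene is that of its merged exons in the Ensembl BDGP6.54 annotation. Counts were tested with edgeR 4.0.16 (R 4.3.3, quasi-likelihood) with TMM scaling, filterByExpr and robust dispersion. MeHg and stage effects used the 12 libraries of a tissue, tissue effects all 24, with 1 mean per group. Printed CPM are scaled over all 24 libraries, so their ratios can differ slightly from fitted fold changes. The ± after a log2 value is a standard error. The test was checked on simulated counts.

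Alternatives were RLE scaling, no low-count filter, DESeq2 1.42.0, limma 3.58.1 voom with quality weights, a replicate block, the title tag, only the 6 libraries compared, all 24 libraries, offsets that take out the length trend of a library, and each library left out. The labels do not say whether replicate numbers pair samples. The deviations of same-numbered libraries correlated between -0.38 and 0.40. All 3 pairs exceeded 0.1 between IFM and VNC of MeHg pupae (0.155 to 0.341) and of MeHg adults (0.105 to 0.222), as did both pairs of control and MeHg adult VNC (0.286 and 0.200), but not those of the control groups of the tissues or of the other comparisons. The tests used no pairing, and the block is given as an alternative. The 10 genes and the lists of other genes were chosen with earlier results of these data known. Named are all 10 members, up to 3 called genes of each other list and comparison with the lowest adjusted p (not all are printed), and the 5 genes most like Mhc and fln. Genes that overlap members were added because of their position. No protein, promoter or genome sequence was used here.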

Additional observations from a re-analysis of the deposited data

Results flagged for a closer look

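The MeHg difference of sls in IFM differed between stages by a test of that difference itself, with an interaction of -1.06 on the log2 scale (edgeR quasi-likelihood adjusted p 0.0308). That call was lost in 14 of 20 alternative fits, with the highest adjusted p (edgeR, 0.143) when the title tag was a term. Control and MeHg libraries stood at 9808 to 13066 and 11501 to 15609 CPM in pupae, and at 19821 to 27286 and 12550 to 14911 CPM in adults. The MeHg libraries of pupal IFM leaned towards longer genes than their controls, sls has the longest exons of the 10 genes, and with each library's trend with length removed the interaction was -0.68 (adjusted p 0.078). The part of length in the difference was not tested beyond this value.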

How the results depend on the processing

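Counts of called members moved with the fit, and apart from fits with fewer libraries the cause was not tested. In pupal IFM, where 1 member was called, DESeq2 called 2, the fit of all 24 libraries 0 and fits without 1 library 0 to 1. In adult IFM, where 2 were called, DESeq2 called 4, the title tag 0, the 6 libraries alone 0, all 24 libraries 1 and fits without 1 library 0 to 3. For MeHg by stage in IFM, where 1 was called, DESeq2 called 2, the title tag 0, all 24 libraries 0, removal of the length trend 0 and fits without 1 library 0 to 1. With the replicate number as a block, 0 members were called in each of these 3 comparisons, in which same-numbered libraries did not deviate together throughout. Among adult IFM libraries only 2 replicate numbers occur in both groups. Control replicate 2 and MeHg replicate 4 therefore carry no weight in the adult difference of that fit. Between tissues, where the pairs of MeHg libraries did, the block changed no count of called members (10 and 10 for the tissue effects, 0 and 0 for MeHg by tissue), and all genes called for MeHg by tissue in adults went from 427 to 227. In pupal IFM the sign changed for Mf (-0.11), bt (-0.22) and Strn-Mlck (-0.23) with the length trend removed, and for Unc-89 with voom (0.0275) and with all 24 libraries (0.0245). None of these passed in any fit.

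Without 1 library, estimates that crossed 0 in pupal IFM ran from -0.17 to 0.0112 for Mlc2, -0.0284 to 0.16 for Mf, -0.14 to 0.17 for bt, -0.0947 to 0.0743 for Strn-Mlck and -0.15 to 0.0498 for Unc-89. In adult IFM they ran from -0.30 to 0.0214 for Mhc and -0.29 to 0.0332 for Mlc2, for the stage effect of sls in VNC from -0.15 to 0.51, and for the adult ratio of fln to Mhc from -0.38 to 0.066. Of 965 gene-level values from 66 selected results, 894 kept direction and call, 38 lost a call, 13 gained one and 20 changed sign. The selection includes the large tissue differences of all 10 genes. It holds only some of the genes for MeHg in pupal VNC and for MeHg by stage in IFM. Gene values for MeHg in adult VNC, MeHg by tissue and MeHg by stage in VNC are not in it. All 10 members stayed called higher in IFM than in VNC in every fit. Stage effects with the title tag could not be fitted, since tags are nested in stages. The number of all genes called ranged from 0 to 949 in pupal IFM and from 81 to 1522 in adult IFM. The summed level of the 10 genes in adult control IFM was 89692 CPM with TMM and 71155 CPM by library totals, and 61050 and 56600 CPM in MeHg adults. In VNC, depth limits fln, which had 0 to 75 counts a library.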
